A study of Mus musculus with 15 samples.

Results

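The hair shaft keratins are the structural proteins that fill the cells of the hair fibre, and 10 of their genes were followed across healed and normal mouse skin: Krt31, Krt33a, Krt33b, Krt34, Krt35, Krt36, Krt81, Krt83, Krt85 and Krt86. The rule names them by gene symbol and uses no measured value, though the set was proposed with earlier results of these data known. Of these 10 genes, 9 were found among the 18929 genes of the count table and Krt85 was not analysed here. All 9 passed the filter on low counts, which kept 15369 genes, and each passed it on counts in the wounded groups.

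The 15 libraries came from dorsal skin of wild-type male BALB/c mice, with 3 libraries in each of 5 groups. Full-thickness excisional wounds of 10 mm or 15 mm were made at 4 to 6 weeks of age and filled either with acellular Matrigel beads (the acellular 10 mm and acellular 15 mm groups) or with the same kind of beads among which beads carrying human umbilical cord mesenchymal stem cells (MSCs) at high density were printed (the HDB 10 mm and HDB 15 mm groups). The 10 mm HDB wound received 56 cell-laden beads with 84000 MSCs and the 15 mm wound 120 beads with 180000 MSCs. The fifth group was normal skin with neither wound nor beads. For the time after surgery the methods name 4 weeks of implantation for sequenced skin but also close the wound experiment on day 21. All 4 wounded groups share the surgery and the Matrigel. The labels do not say that the 3 samples of a group came from separate mice, so the p-values measure only the spread between these samples.

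A hair keratin filament is built from pairs of an acidic type I keratin and a basic type II keratin. Krt31, Krt33a, Krt33b, Krt34, Krt35 and Krt36 encode type I chains, and Krt81, Krt83 and Krt86 encode type II chains. The genes are switched on in the keratinocytes that leave the matrix of the growing (anagen) follicle and move upwards to become the cortex and cuticle of the shaft. Keratin 35 belongs to the earliest hair keratins made on that path, whereas keratins 31, 33, 34, 81, 83 and 86 are known mainly from the cortex. Follicles at rest make little of any of them.

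In the GRCm38.p6 assembly, which the submitters' processing notes also name, the 6 type I genes lay on chromosome 11 between bases 100011199 and 100109487, all on the minus strand, in a stretch of 98.3 kb. The 3 type II genes lay on chromosome 15 between bases 101459061 and 101491512, in a stretch of 32.5 kb. Krt86 was on the plus strand there, and Krt81 and Krt83 were on the minus strand. Near copies within each group limit how reads can be told apart. The transcripts of Krt31, Krt33a, Krt33b and Krt34 were 76.4% to 79.2% identical to each other, with an exact shared run of up to 295 bases between Krt33a and Krt34. Those of Krt81, Krt83 and Krt86 were 77.7% to 81.6% identical, with a shared run of up to 374 bases between Krt81 and Krt86. Krt35 and Krt36 were 62.5% to 65.6% identical to the other type I members and to each other. In the count table the estimated counts of Krt35 and Krt36 were whole numbers in every library, while the other 7 members held decimals in 7 to 10 of the 15 libraries, as arises when reads that match several transcripts are shared out. The values of these 7 genes, and the split among near copies most of all, are therefore less certain than those of Krt35 and Krt36.

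Because the members moved together across libraries (below), the stretch before the transcription start was read for those with an entry in the RefSeq promoter table of GRCm38.p6, which were 4 of the 9 members, all of type I. Each line gives the 250 bases before the start, 5′ to 3′ on the minus strand. Capitals mark 5 short motifs searched on both strands: the TATA box TATAAA, the LEF1/TCF core as CTTTGA or CTTTGT, and the core bound by HOXC13-type homeodomain proteins as TTTAT or TTAAT. The windows are chr11:100050552-100050801 for Krt31, chr11:100029869-100030118 for Krt33b, chr11:100041555-100041804 for Krt34 and chr11:100105627-100105876 for Krt36. The window of Krt36 lies inside the annotated extent of its gene, so the start used by the table is not the outermost one.
Krt31: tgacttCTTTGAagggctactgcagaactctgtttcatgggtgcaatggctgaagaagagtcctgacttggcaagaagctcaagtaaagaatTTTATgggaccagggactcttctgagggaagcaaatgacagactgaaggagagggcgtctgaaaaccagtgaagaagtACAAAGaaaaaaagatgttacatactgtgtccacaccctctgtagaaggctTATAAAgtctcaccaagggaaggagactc
Krt33b: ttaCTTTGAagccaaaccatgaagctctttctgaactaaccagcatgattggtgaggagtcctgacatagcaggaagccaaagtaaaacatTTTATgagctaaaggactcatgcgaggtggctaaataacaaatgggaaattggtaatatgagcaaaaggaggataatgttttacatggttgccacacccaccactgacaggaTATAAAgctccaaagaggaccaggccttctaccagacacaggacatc
Krt34: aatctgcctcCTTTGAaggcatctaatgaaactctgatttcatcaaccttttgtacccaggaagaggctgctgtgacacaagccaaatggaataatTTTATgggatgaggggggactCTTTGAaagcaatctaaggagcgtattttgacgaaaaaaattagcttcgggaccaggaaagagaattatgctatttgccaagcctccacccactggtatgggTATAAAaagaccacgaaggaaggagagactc
Krt36: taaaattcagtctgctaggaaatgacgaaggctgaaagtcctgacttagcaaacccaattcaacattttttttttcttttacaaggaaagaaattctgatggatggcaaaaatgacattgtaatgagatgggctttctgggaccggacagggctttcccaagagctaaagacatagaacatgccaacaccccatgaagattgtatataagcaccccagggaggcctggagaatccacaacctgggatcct

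Krt31, Krt33b and Krt34 showed the same order of motifs. CTTTGA began at -244, -247 and -240 relative to the start, TTTAT at -158, -159 and -154, and TATAAA at -29, -47 and -31, all on the strand of the gene. Krt34 held another CTTTGA at -133, and Krt31 held CTTTGT on the opposite strand at -80. Krt36 held none of the 5 exact motifs in its window, which says only that these letters are not there. Variant spellings were not searched, and the window of Krt36 does hold the similar word tatataag. Among all 32851 windows of the table, 12.4% held TATAAA, 13.8% CTTTGA, 16.5% CTTTGT, 37.3% TTTAT and 24.9% TTAAT. Read on the opposite strand, TATAAA contains TTTAT, and 31.0% of windows held a TTTAT outside it. Windows that held TATAAA together with CTTTGA and with a TTTAT outside the TATA box made up 1.1% of all. These matches describe the sequence and were not tested for use in skin.

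Total counts per library lay between 15840551 and 18404188, so depth differed little. Levels are given as CPM, the counts of a gene scaled to a common library size, after TMM normalization, and 3 counts, taken as the floor per library, corresponded to 0.159 to 0.211 CPM. The 3 samples of every group differed by far more than counting noise, and no pair looked like copies of one library. The acellular 15 mm library of replicate 1 stood apart for these genes: the 9 members held 216581 of its counts, or 1.18% of the library, against 0.109% in replicate 2 and 0.00109% in replicate 3 of the same group. Fold changes of the members that rest on this library are given with and without it, by gene or as a range over the members. The values of other gene lists and the correlations include it throughout.

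Krt35, the early type I keratin, was measured at 1659, 237 and 3.50 CPM in acellular 15 mm replicates 1, 2 and 3. In acellular 10 mm skin it was at 120, 0.225 and 88.0 CPM. In HDB 15 mm skin it was at 73.9, 15.2 and 14.3 CPM. The spread within each acellular group thus covered all of the HDB values of that size apart from replicate 2 of HDB 10 mm, where the values were 6.51, 0.108 and 3.33 CPM. In normal skin Krt35 was at 0.0703, 0.335 and 0.0671 CPM, which is 1 to 5 counts per library.

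Krt31, a cortical type I keratin, was at 1679, 137 and 0.903 CPM in acellular 15 mm skin and at 67.6, 0.393 and 15.1 CPM in acellular 10 mm skin. In HDB 15 mm skin it was at 53.5, 5.70 and 4.80 CPM, and in HDB 10 mm skin at 1.36, 0.269 and 0.666 CPM. Normal skin held 0.351, 0.134 and 0.402 CPM. The acellular libraries of one size thus ranged from near the normal level to above every HDB library of that size.

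Krt83, a cortical type II keratin, had the highest level of any member in a single library, 2803 CPM in acellular 15 mm replicate 1. The other acellular 15 mm libraries were at 228 and 1.54 CPM, and the acellular 10 mm libraries at 94.6, 0.562 and 15.2 CPM. HDB 15 mm skin held 91.1, 10.4 and 5.25 CPM and HDB 10 mm skin 0.710, 0.269 and 0.944 CPM. No count was found in any of the 3 normal libraries, nor for Krt33b, Krt81 and Krt86, where a count of 0 allows a level of up to 0.201 to 0.211 CPM per library.

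Krt36, a type I keratin, was the lowest member in the highest library, at 137 CPM in acellular 15 mm replicate 1, with 24.9 and 0.531 CPM in the others of that group. It was at 11.8, 2.79 and 5.70 CPM in HDB 15 mm skin and at 6.45, 0.0562 and 2.34 CPM in acellular 10 mm skin. In HDB 10 mm skin it was at 0.237, 0.215 and 0.278 CPM and in normal skin at 0.141, 0.402 and 0.134 CPM, so these groups overlapped at 2 to 6 counts per library. The remaining 5 members followed the same course, with 589 (Krt34) to 2182 CPM (Krt33a) in acellular 15 mm replicate 1 and 0.478 to 1.01 CPM in replicate 3 of that group.

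**Figure D1:**
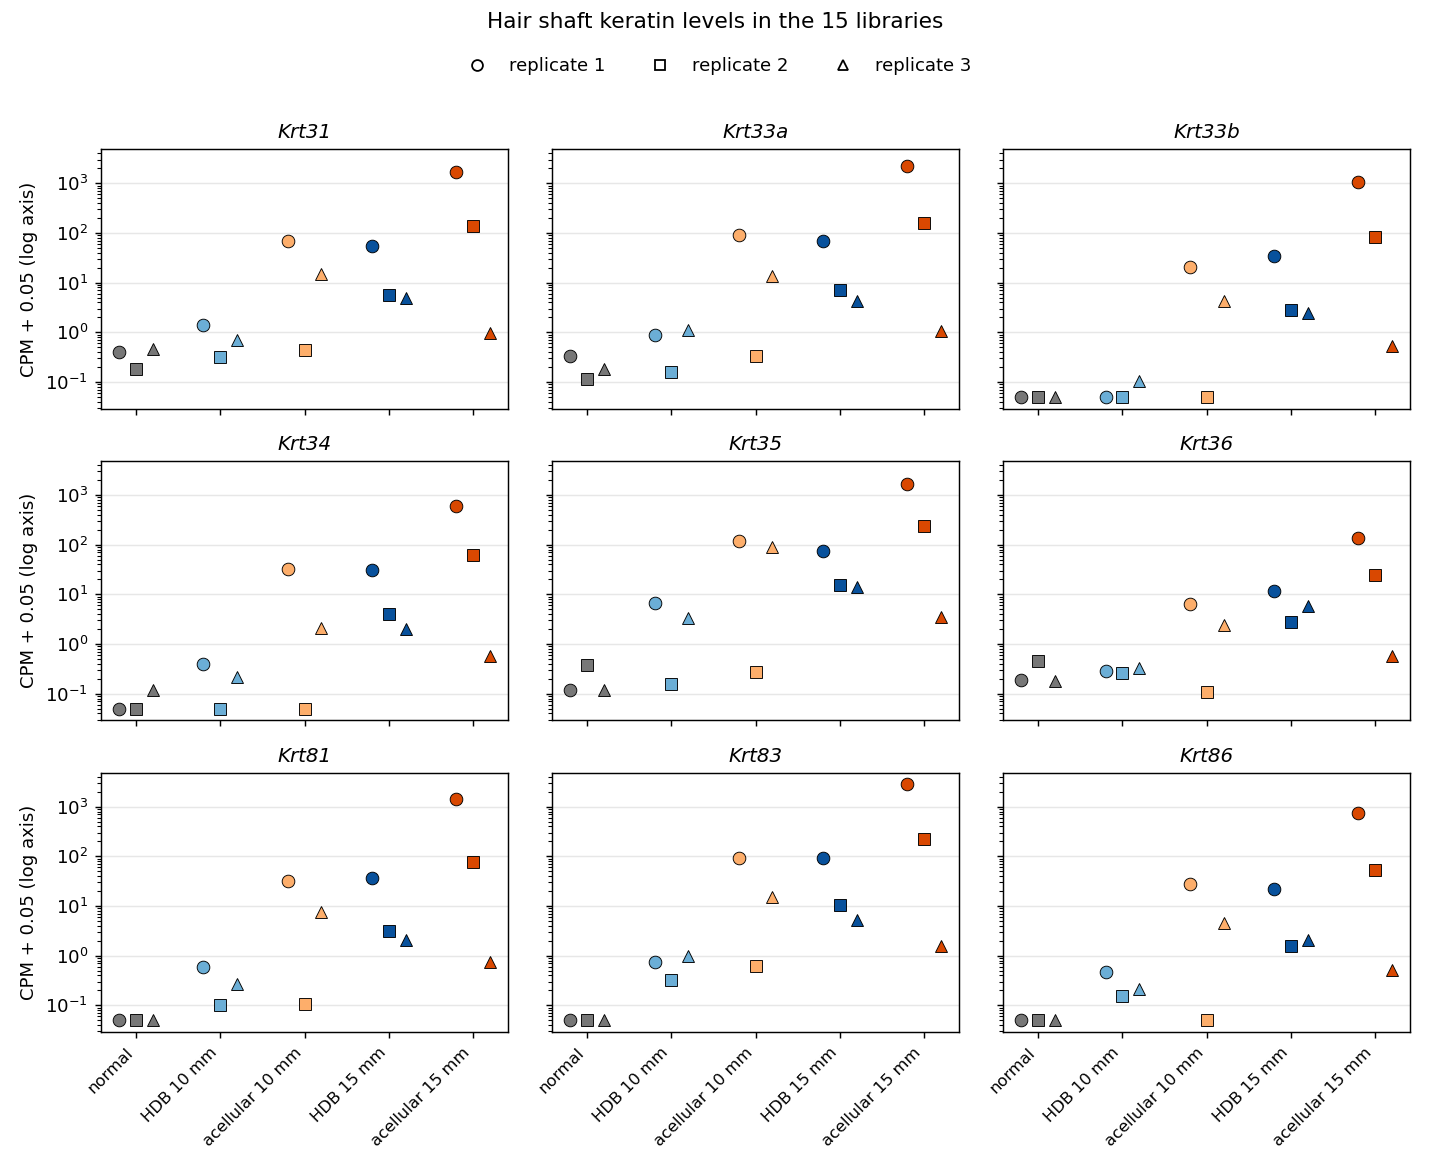
Level of each of the 9 hair shaft keratins (CPM after TMM normalization plus 0.05, log axis) in the 15 libraries, by group, with a point for each replicate and no averaging. The acellular groups span the widest range, from about the normal level to 2803 CPM for Krt83, and all 3 HDB 15 mm libraries lie above all 3 HDB 10 mm libraries for every gene shown.

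By group mean, acellular 15 mm skin was highest for all 9 members and normal skin lowest. Acellular 10 mm and HDB 15 mm skin came between and changed places: the acellular 10 mm mean was higher for Krt31, Krt33a, Krt35, Krt83 and Krt86, and the HDB 15 mm mean for Krt33b, Krt34, Krt36 and Krt81. HDB 10 mm skin came next above normal skin. Krt31, for example, had means of 606 ± 932 CPM for acellular 15 mm skin, 27.7 ± 35.3 CPM for acellular 10 mm skin, 21.3 ± 27.9 CPM for HDB 15 mm skin, 0.766 ± 0.553 CPM for HDB 10 mm skin and 0.296 ± 0.143 CPM for normal skin (SD, n = 3 each). The SD was larger than the mean in the first 3 of these groups. Of the neighbours in this order, the HDB 15 mm libraries lay wholly above the HDB 10 mm libraries for all 9 members, as for 11% of all genes. Acellular 15 mm skin lay wholly above acellular 10 mm skin for none of the 9, against 8.39% of genes, and acellular 10 mm and HDB 15 mm skin also overlapped for all 9. HDB 10 mm skin lay wholly above normal skin for 3, Krt81, Krt83 and Krt86, against 25.7% of genes, but the lowest of these HDB values for Krt81 and Krt86 were 1 and 2 counts, under the floor of 3, so their order is not resolved.

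The comparison of HDB with acellular wounds addresses whether stem cell beads changed the healed skin. At 10 mm no member passed the test (edgeR's quasi-likelihood test, Benjamini-Hochberg adjusted p of 1.00 for all 9), and 0% of all genes were called lower. The members' fitted values all lay on the lower side in HDB. For the 8 members with more than 3 counts in the HDB 10 mm group the log2 fold change ran from -6.01 (Krt34, SE 2.54) to -3.56 (Krt36, SE 1.67), with a median of -5.56 against -0.01 over all genes. Krt33b had a single count over the 3 HDB 10 mm libraries and gets no fold. Without acellular 10 mm replicate 1 the 8 values shrank to between -3.83 (Krt81) and -2.26 (Krt36), with a median of -3.38. HDB libraries lay wholly below acellular ones for none of the 9, against 6.47% of genes. At an unadjusted p under 0.05, 6 of the 9 members were lower, Krt33b with its single HDB count among them, against 1.43% of all genes. DESeq2 called none of the 9, against 0.0586% of all genes called lower. With only these 2 groups in the fit, 4 of the 9 passed the filter on low counts and none was called, as for 0% of genes. The rest entered the test through counts in other groups, so these unadjusted p-values are descriptions. In bulk skin, fewer cells that make a keratin and less of its RNA per cell cannot be told apart.

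At 15 mm the members again had lower fitted values in HDB skin and none passed the test. The log2 fold change ran from -5.15 (Krt81, SE 2.19) to -3.00 (Krt36, SE 1.34), with a median of -4.83 against 0.00 over all genes and adjusted p-values of 0.164 to 0.212 by edgeR. Over all genes 2.35% were called lower. At an unadjusted p under 0.05 all 9 members were lower, against 15.7% of genes, and DESeq2 called Krt31 and Krt33a lower, against 9.16% of genes. Here same-numbered samples of the acellular and HDB groups deviated together (correlations of 0.397, 0.166 and 0.184), and the adjusted p-values were 0.137 to 0.280 once the number entered the fit as a block. Without acellular 15 mm replicate 1 the log2 fold changes shrank to between -1.80 (Krt35) and -0.90 (Krt36), and without HDB 15 mm replicate 1 they widened to between -7.62 (Krt81) and -3.67 (Krt36). The HDB libraries lay wholly below the acellular ones for none of the 9, against 11.7% of genes. Without acellular 15 mm replicate 3, the lowest of its group for all 9 members, Krt31 (-5.41, adjusted p = 0.0410) and Krt36 (-3.58, adjusted p = 0.0376) passed edgeR's test, in a fit that also called 11.6% of all genes lower.

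Over both sizes together the log2 fold change of HDB against acellular skin was -5.30 for Krt33a (SE 1.54), -4.29 for Krt35 (SE 1.33) and -5.33 for Krt83 (SE 1.63), each with an adjusted p of 0.261 by edgeR, and no member was called, as for 0% of all genes. All 9 members were lower at an unadjusted p under 0.05, against 10.5% of genes. DESeq2 called 7 of the 9 lower, all except Krt34 and Krt36, against 1.06% of genes. Without acellular 15 mm replicate 1 the log2 fold changes shrank to -3.67 for Krt33a, -3.10 for Krt35 and -3.76 for Krt83. Over the 8 members other than Krt33b the median was -3.55 without that library, -4.10 without acellular 10 mm replicate 1 and -6.23 without HDB 15 mm replicate 1, against -5.16 with all libraries. Without acellular 15 mm replicate 3, edgeR called Krt31 and Krt36 over both sizes as well, in a fit that called 0.984% of all genes lower. The levels behind these values overlap: the highest HDB library of each size lay above the lowest acellular library of that size for every member. The difference of the HDB effect between the sizes was called for 0 of the 9 members and for 0% of genes in the higher direction, and at an unadjusted p under 0.05 also for none of the 9, against 5.22% of genes, as by DESeq2, against 1.56%. It was 0.19 (Krt35, SE 2.33) to 1.86 (Krt34, SE 3.22) on the log2 scale over the 8 members other than Krt33b, and 2.59 (Krt35, SE 2.35) to 4.63 (Krt34, SE 2.97) without acellular 15 mm replicate 1, where again no member and 0% of genes were called.

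**Figure D2:**
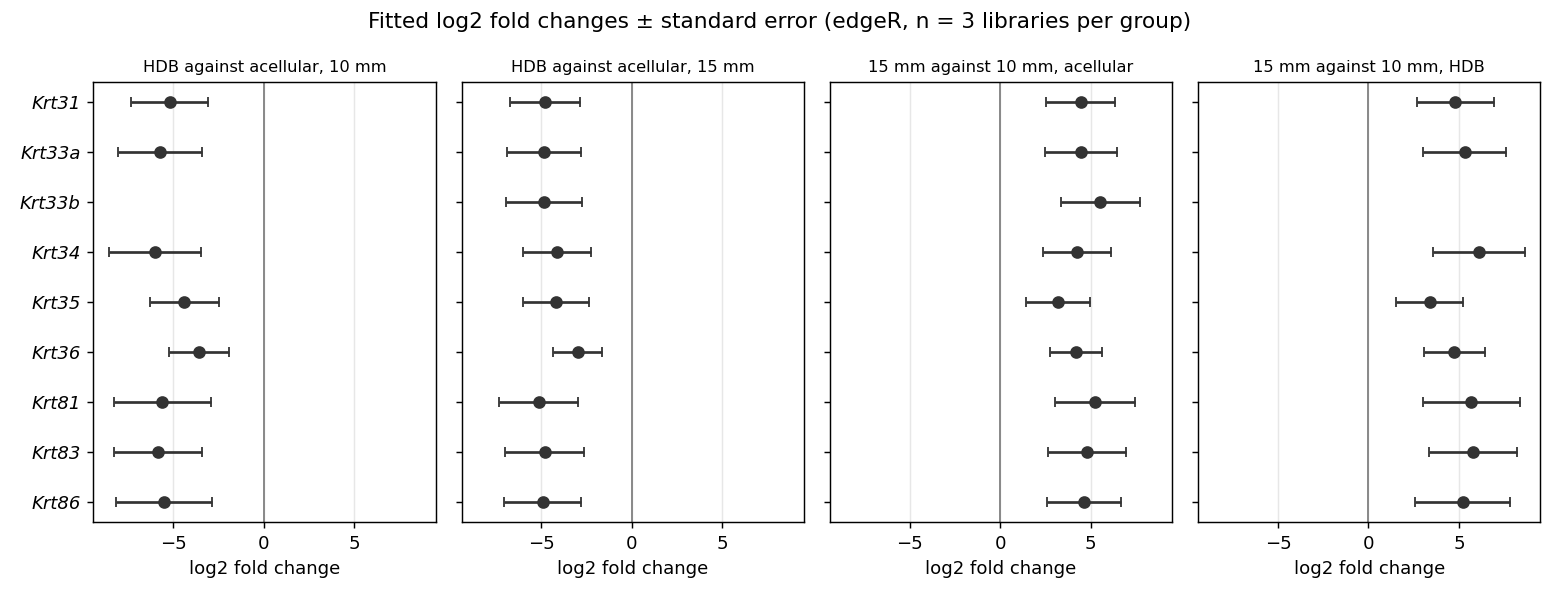
Log2 fold change of each member with its standard error in 4 comparisons of wounded groups (edgeR, n = 3 libraries per group, 0 means no difference). HDB values lie below acellular values at both sizes and 15 mm values above 10 mm values, and no member passed the adjusted threshold of 0.05 in any of the 4. Krt33b is left out where the HDB 10 mm group, with a single count, is compared. Krt34, Krt36, Krt81 and Krt86 lie at or near the floor in that group.

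Compared with normal skin, all 9 members were higher in acellular 15 mm skin. The log2 fold change was 11.90 for Krt35 (SE 2.80, adjusted p = 0.0107), 10.97 for Krt31 (SE 2.69, adjusted p = 0.0124), 12.20 for Krt33a (SE 3.02, adjusted p = 0.0127) and 7.86 for Krt36 (SE 1.82, adjusted p = 0.0103, all by edgeR). Against the floor of 3 counts per library, Krt83 was at least 4949-fold higher, Krt81 at least 2441-fold, Krt33b at least 1878-fold and Krt86 at least 1294-fold. With normal skin set at that floor wherever its mean was lower, the median over the 9 members was a 2047-fold higher mean. All 9 had acellular 15 mm libraries wholly above the normal ones, as did 22.5% of all genes, and 17.6% of all genes were called higher. Every member passed the filter on low counts through wounded skin alone, since the 9 together held 12 to 14 counts in a normal library, so their calls and p-values against normal skin, here and for the other wounded groups, are descriptions. With only these 2 groups in the fit, 5 members passed the filter (Krt31, Krt33a, Krt35, Krt81 and Krt83) and none was called, with adjusted p-values of 0.0502 to 0.103 by edgeR, against 2.91% of genes called higher. The size of these folds rests on replicate 1. Without it the median over the 9 fell to a 203-fold higher mean. Krt83 was then at least 562-fold, Krt33b at least 203-fold, Krt81 at least 190-fold and Krt86 at least 128-fold higher. Against the same floor, Krt33a fell from 3828-fold to 400-fold. All 9 members were called without replicate 1, in a fit that called 13.1% of genes higher, and the log2 fold change was 7.84 for Krt31, 9.50 for Krt35 and 5.76 for Krt36. Without normal replicate 1 or 2 the calls fell to 5 (Krt31, Krt33a, Krt35, Krt36 and Krt83) and without normal replicate 3 to 4 (the same without Krt33a), against 9.53%, 9.45% and 8.12% of genes called higher in these fits.

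All 9 members had higher means in acellular 10 mm than in normal skin. With normal skin set at the floor wherever its mean was lower, means were 13.1-fold (Krt36) to 339-fold (Krt35) higher. The median was 64.4-fold, and 18.9-fold without acellular 10 mm replicate 1. EdgeR called Krt35 alone, with a log2 fold change of 8.71 (SE 2.62, adjusted p = 0.0362), against 9.77% of all genes called higher. This call was lost without acellular 10 mm replicate 1 or 3 and without any of the 3 normal libraries, with adjusted p-values of 0.0634 to 0.118. With only these 2 groups in the fit no member passed the filter on low counts, Krt35 included. The other 8 members had adjusted p-values of 0.0615 to 0.141, and only Krt81 and Krt83 lay wholly above normal skin, against 29.1% of genes, for Krt81 by a single count in replicate 2, which is under the floor. DESeq2 called all 9, against 12.6% of genes. The 3 acellular 10 mm libraries did not move as a group, since replicate 2 held 28 counts of the 9 members in all, against 8614 and 2616 in replicates 1 and 3 and 12 to 14 in normal skin.

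HDB 15 mm skin lay above normal skin in every library for all 9 members, as it did for 23.8% of all genes, but no member passed edgeR's test (adjusted p of 0.0891 for Krt35 to 0.181 for Krt86), against 2.67% of genes called higher. With only these 2 groups in the fit, edgeR called 6 of the 9 (Krt31, Krt33a, Krt34, Krt35, Krt36 and Krt83), against 11.6% of genes called higher. At an unadjusted p under 0.05 all 9 were higher, against 13.7% of genes, and DESeq2 called all 9, against 7.04% of genes. Against the floor, the HDB 15 mm mean was at least 174-fold higher for Krt83 and at least 42.0-fold higher for Krt86. These means rest on HDB 15 mm replicate 1, without which Krt83 was at least 38.2-fold and Krt86 at least 8.69-fold higher. HDB 10 mm skin was nearest to normal skin. No member was called there, against 6.1% of genes, none reached an unadjusted p under 0.05, against 15.5% of genes, and none was called by DESeq2, against 9.78%. Krt35 had the largest difference of mean CPM in HDB 10 mm skin, with a mean of 3.32 ± 3.20 CPM against 0.157 ± 0.154 CPM (SD, n = 3 each) and an adjusted p of 0.282 by edgeR. The fitted log2 fold change was larger for Krt81, Krt83 and Krt86, which had no count in normal skin. The 4 comparisons with normal skin share the same 3 normal libraries and are not independent of each other.

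Wound size was compared within each kind of bead. In HDB skin the 15 mm libraries lay above the 10 mm libraries for all 9 members without overlap, as for 11% of all genes, yet no member passed edgeR's adjusted threshold and 0% of genes were called higher. The log2 fold change ran from 3.38 (Krt35, SE 1.84) to 6.11 (Krt34, SE 2.54) over the 8 members other than Krt33b, with a median of 5.26 against 0.02 over all genes and adjusted p-values of 0.290 to 0.486 over the 9. At an unadjusted p under 0.05, 6 of the 9 were higher, against 5.67% of genes, and DESeq2 called Krt33b and Krt36, against 0.885% of genes. In HDB 10 mm skin Krt33b held a single count, and Krt34, Krt36, Krt81 and Krt86 lay at or near the floor. Within this pair they passed the filter on low counts only through HDB 15 mm skin. Their folds, p-values and calls here are descriptions. Without HDB 15 mm replicate 1 the median fell to 3.16. In acellular skin the same comparison gave log2 fold changes of 3.19 (Krt35, SE 1.76) to 5.54 (Krt33b, SE 2.17), a median of 4.47 against 0.06 over all genes and adjusted p-values of 0.186 to 0.363, with no member and 0% of genes called. Unadjusted, 8 of the 9 were higher, against 10.5% of genes, and DESeq2 called Krt36, against 3.09% of genes. Without acellular 15 mm replicate 1 the values fell to between 0.79 (Krt35) and 2.33 (Krt33b), with a median of 1.48 and adjusted p-values of 0.352 to 0.811. Without acellular 10 mm replicate 1 the median rose to 6.88, and without acellular 15 mm replicate 3 Krt36 passed edgeR's test, against 2.06% of genes called higher.

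The make-up of the keratin transcripts varied between libraries. It was computed for the 10 libraries with at least 100 counts over the 9 members, which leaves out normal skin, acellular 10 mm replicate 2 and HDB 10 mm replicate 2. Krt35 made up 13.5% of these counts in acellular 15 mm replicate 1 (95% Wilson interval 13.4% to 13.7%), 22.3% in replicate 2 (21.7% to 22.9%) and 36.3% in replicate 3 (29.6% to 43.5%). It made up 17.5% in HDB 15 mm replicate 1 (16.6% to 18.4%) and 28.9% and 33.5% in replicates 2 and 3. The highest shares were 57.6% in acellular 10 mm replicate 3 (55.7% to 59.5%) and 59.1% in HDB 10 mm replicate 1 (52.0% to 65.9%). Intervals and the floor cover counting error only. The share of Krt35 was lower where the summed count was higher, with a Spearman rho of -0.782 over the 10 libraries, given as a description of values that share a denominator. The share of Krt31 stayed in a narrower range, between 9.34% and 13.7%, but was higher where the summed count was higher, with a rho of 0.83.

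Per length of transcript, Krt35 was the most abundant member in 8 of these 10 libraries, and Krt83 in the other 2, acellular 15 mm replicate 1 and HDB 15 mm replicate 1. The ratio of Krt35 to Krt31 per length was 0.907 in acellular 15 mm replicate 1, 1.27 in HDB 15 mm replicate 1 and 1.63 in acellular 10 mm replicate 1. It was 5.34 in acellular 10 mm replicate 3 and 4.39 and 4.59 in HDB 10 mm replicates 1 and 3. Acellular 10 mm replicates 1 and 3, of the same group, thus lay far apart in this ratio. The type II members Krt81, Krt83 and Krt86 together made up 38.2% of the transcripts per length in acellular 15 mm replicate 1 and 14.4% in HDB 10 mm replicate 1, the ends of the range. Krt36 was high relative to its peers in a single library: in HDB 15 mm replicate 3 it was the second most abundant member per length, with 13.6% of the transcripts, against 1.14% to 5.63% in the other 9. Krt85, a type II partner from the early stage, was not analysed here, so the type II share leaves it out.

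**Figure D3:**
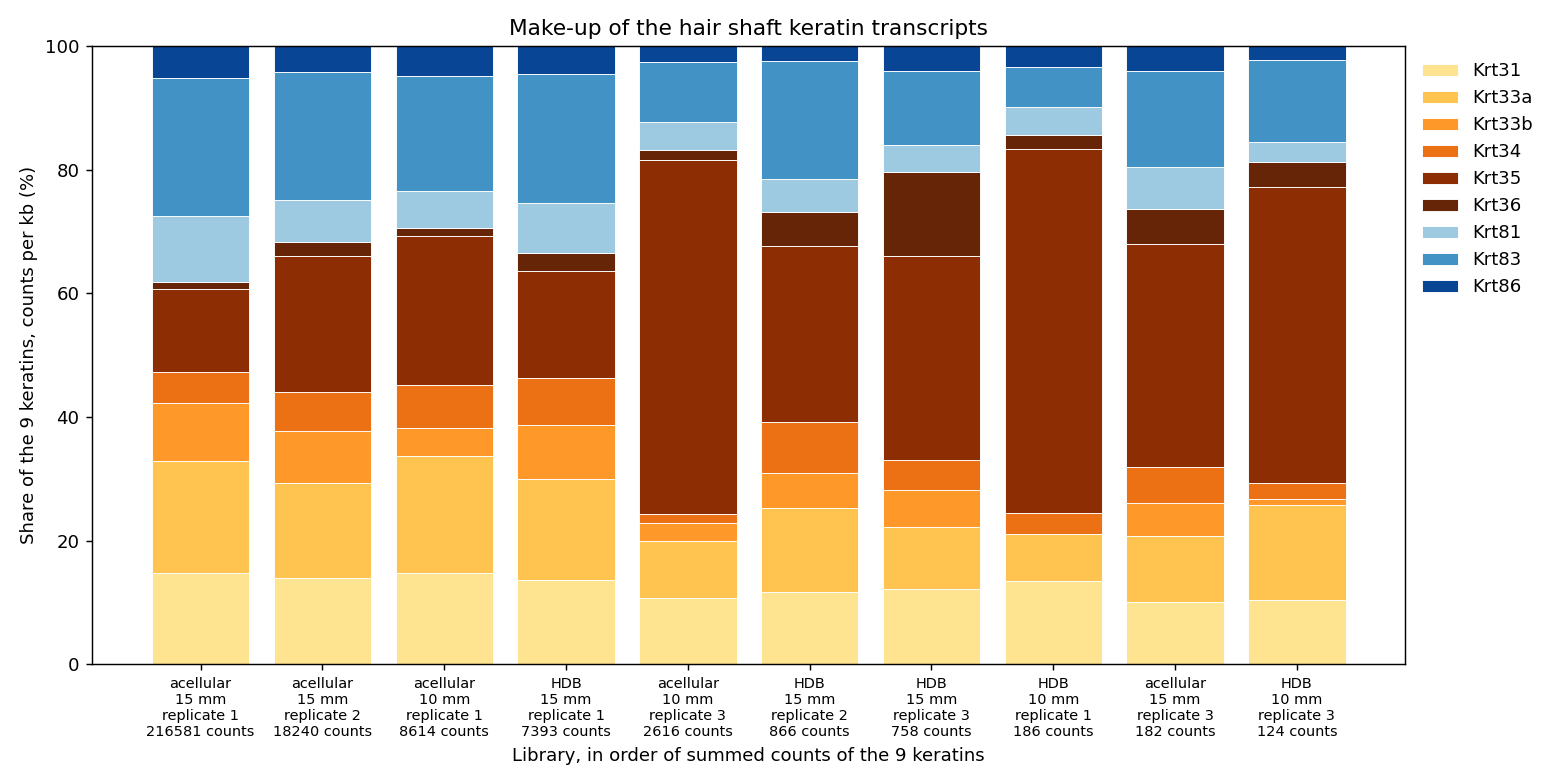
Share of each member among the 9 hair shaft keratins, from estimated counts per kb of transcript (%), in the 10 libraries with at least 100 summed counts, ordered by that sum. Yellow to brown are type I and blue type II. Krt35 takes 13.4% in the library with the most counts and 58.9% in HDB 10 mm replicate 1.

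Across the 15 libraries the log2 CPM values of the members ran together, with Pearson's r from 0.924 (Krt35 and Krt36) to 0.997 (Krt81 and Krt86), a description over samples of 5 groups in which the near copies also share reads. The genes outside the members whose log2 CPM was most like the members' mean over the 15 libraries were Calhm4 (r = 0.994), Krtap7-1 (0.993), Krt87 (0.992), Krtap8-1 (0.991), Gprc5d (0.990), Padi3 (0.989), Gja3 (0.989), Ly6g6d (0.987), Krtap11-1 (0.986) and S100a3 (0.985). Krtap7-1, Krtap8-1 and Krtap11-1 encode keratin-associated proteins, the matrix in which hair keratin filaments are embedded, and Padi3 encodes an enzyme that turns arginine into citrulline in hair proteins. Of 15360 genes compared, 54 had an r over 0.95.

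The other 6 hair keratins of the table (Krt32, Krt39, Krt40, Krt82, Krt84 and Krt87) summed to 2281, 323 and 8.18 CPM in acellular 15 mm skin and to 2.88 to 5.48 CPM in normal skin. None was called by edgeR between HDB and acellular skin. At an unadjusted p under 0.05, 1 was lower in HDB at 10 mm, 5 at 15 mm and 5 with the sizes combined, against 1.43%, 15.7% and 10.5% of genes. DESeq2 called 0, 2 and 4, against 0.0586%, 9.16% and 1.06%. Krt32, a type I keratin of the cuticle, was detected in normal skin at 2.81 to 5.20 CPM, above any member there, and reached 244 CPM in acellular 15 mm replicate 1. Krt84 ran differently from the members. It was at 9.64 CPM in acellular 15 mm replicate 1 but at 161 CPM in replicate 2, and at 83.1, 15.6 and 17.3 CPM in the HDB 15 mm libraries. Between HDB and acellular 15 mm skin its log2 fold change was -0.58 (SE 1.2, adjusted p = 0.799 by edgeR). It is known from structures other than the hair cortex, such as the nail and the tongue papillae. Krt87, a near neighbour of Krt81, followed the members, with 1817, 99.2 and 0.690 CPM in the acellular 15 mm libraries.

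Other gene groups of the follicle were read beside the members. The 53 keratin-associated protein genes of the table summed to 7953, 769 and 8.50 CPM in acellular 15 mm skin and to 326, 57.4 and 46.4 CPM in HDB 15 mm skin, against 3.08 to 4.21 CPM in normal skin, where 45 of the 53 had no count. Of the 53, 36 passed the filter, most of them through wounded skin alone, so calls against normal skin are not counted. None of the 36 was called by edgeR between HDB and acellular skin. At an unadjusted p under 0.05, 10 were lower in HDB at 10 mm, 17 at 15 mm and 35 with the sizes combined, and DESeq2, which was not limited to these 36 of the 53, called 1, 2 and 10. Krtap8-1, the most abundant, was at 1448, 150 and 1.43 CPM in acellular 15 mm skin and at 65.8, 12.5 and 6.10 CPM in HDB 15 mm skin. The 8 inner root sheath genes, which encode parts of the sheath that moulds the growing shaft, summed to 13380, 1004 and 25.5 CPM in acellular 15 mm skin and to 8.38 to 10.5 CPM in normal skin, where 4 of them had no count. None was called by edgeR between HDB and acellular skin, where 6 at each size and 8 over both were lower at an unadjusted p under 0.05. DESeq2 called 0 at 10 mm, 3 at 15 mm and 6 over both. The all-gene shares for these counts are those given for the other hair keratins. Tchh, which encodes the sheath and medulla protein trichohyalin, was at 5034, 256 and 10.8 CPM in the acellular 15 mm libraries and at 127, 38.4 and 34.7 CPM in the HDB 15 mm libraries. S100a3, the most abundant of 7 hair shaft partner genes and a calcium-binding protein of the hair cuticle, was at 1155, 202 and 2.66 CPM in acellular 15 mm skin.

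Values of other cell groups in the library that stood apart are given beside the keratins, and their part in the keratin levels was not tested. In acellular 15 mm replicate 1 the summed level of 8 melanocyte genes was 2607 CPM, against 113 and 217 CPM in replicates 2 and 3 in its group, and no gene of that list was without counts in any group. The summed level of 8 proliferation genes was 1590 CPM in that library against 282 and 326 CPM in the others of its group, with Mki67 at 698, 121 and 137 CPM. The 14 hair matrix transcription factors summed to 2458, 1002 and 503 CPM. The summed level of 9 interfollicular epidermis genes moved the other way, at 5543, 13230 and 10710 CPM. In acellular 15 mm replicate 2, where the keratins were the next highest, the melanocyte sum was below the 158 to 217 CPM of the HDB 15 mm libraries and the proliferation sum was within their 268 to 293 CPM. Skeletal muscle genes summed to between 509 and 29990 CPM in the wounded libraries and 40840 to 46180 CPM in normal skin. The source of that difference was not tested. The mean log2 CPM of that list had a Pearson's r of -0.194 with that of the members over the 15 libraries, as a description.

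Genes of other skin cells ran with or against the keratins. Over the 15 libraries the mean log2 CPM of the members had a Pearson's r of 0.744 with that of 8 bulge and outer root sheath genes, 0.667 with the melanocyte genes, 0.551 with the proliferation genes and 0.542 with 8 dermal papilla genes. It had an r of -0.612 with 6 macrophage genes, -0.584 with 7 fibroblast and matrix genes, -0.556 with 5 endothelial genes and -0.448 with the epidermis genes, as descriptions. The r was -0.38 with 9 sebaceous gland genes and -0.21 with 5 adipocyte genes. Genes of a list did not always move one way. In acellular 15 mm against normal skin, fitted values were higher for 4 and lower for 5 epidermis genes. There, 5 bulge and outer root sheath genes were higher and 3 lower, and 6 dermal papilla genes were higher and 2 lower. The fibroblast and matrix genes summed to 3601 to 5557 CPM in acellular 10 mm skin and to 9143 to 12100 CPM in HDB 10 mm skin. In acellular 15 mm skin they summed to 3512, 3976 and 15030 CPM, lowest in the library where the keratins were highest and highest where the keratins were lowest, and in HDB 15 mm skin to 8448, 15910 and 18610 CPM. Col3a1, which encodes a fibrillar collagen of the dermis, was at 1201, 1477 and 5383 CPM in acellular 15 mm skin. None of the 7 genes was called by edgeR at either size or with the sizes combined. Unadjusted, 3 of the 7 were higher in HDB at 10 mm (p under 0.05), 1 at 15 mm and 7 with the sizes combined, against 2.1%, 7.48% and 5.32% of genes. DESeq2 called 0, 0 and 1 of the 7, against 0.0213%, 3.27% and 0.33%. No gene of these lists was without counts in any group. The part of these shifts in the keratin differences was not tested.

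**Figure D4:**
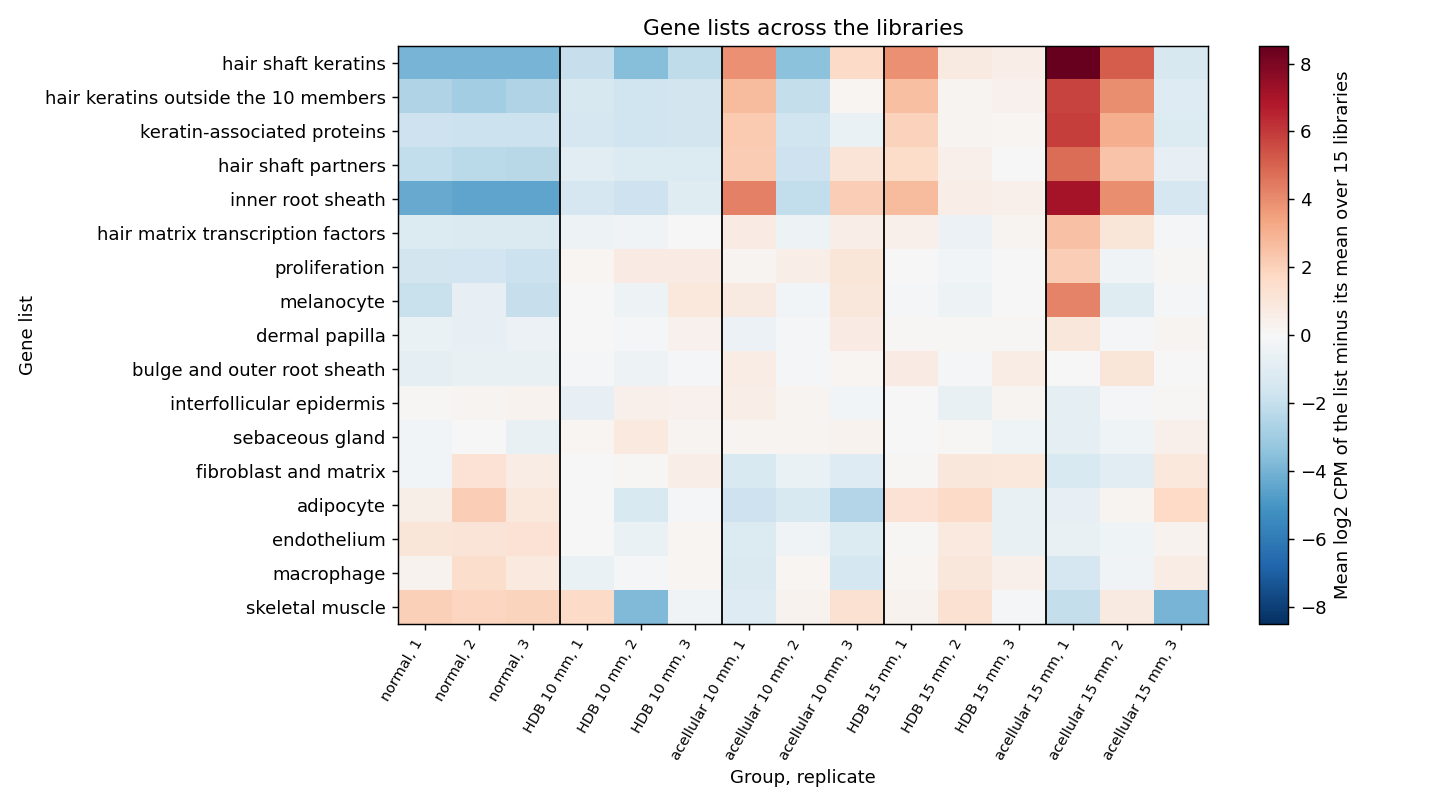
Mean log2 CPM of each gene list minus its own mean over the 15 libraries, with libraries in columns by group and replicate. The hair shaft keratins, the other hair keratins, the keratin-associated proteins, the shaft partners and the inner root sheath genes are all highest in acellular 15 mm replicate 1 and high in acellular 15 mm replicate 2, acellular 10 mm replicate 1 and HDB 15 mm replicate 1, whereas the melanocyte and proliferation lists, also highest in acellular 15 mm replicate 1, are lower in its replicate 2 than in any other wounded library.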

How the data were processed

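Estimated counts per gene for 15 libraries were deposited by the authors in a single table, not normalized. The submitters' processing notes name HISAT2 2.0.4, Bowtie2 2.2.5, RSEM 1.2.12 and GRCm38.p6; the libraries were poly-A selected. These expected counts were rounded to whole numbers. In R 4.3.3, edgeR 4.0.16 (TMM, filterByExpr, quasi-likelihood test, 1 fit of 5 group means, Benjamini-Hochberg adjustment over 15369 genes, threshold 0.05) was the main test, with DESeq2 1.42.0 as an alternative. The standard error of a log2 fold change was its size over the square root of the F statistic. Log2 CPM used a prior count of 2. Lengths came from the longest protein-coding GENCODE transcript, and identities from global alignment in Biopython 1.88. The script was tested on simulated data.

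The members and lists were chosen with earlier results of these data known. All members are named, then the most abundant gene of other lists where described, and the 10 genes most correlated with the members' mean. The other alternatives were upper quartile normalization, no filter, a mean count of at least 50, only the groups compared, a replicate block and leaving out each sample. Whether a replicate number marks a shared animal or day is not given in the sources used here. Same-numbered samples deviated together in all 3 pairs (correlation over 0.1) for the acellular and HDB 15 mm groups, and for no other 2 groups.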

Additional observations from a re-analysis of the deposited data

How the results depend on the processing

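Under upper quartile normalization, no filter and the stricter filter, the counts of members called stayed the same in all 10 comparisons. DESeq2 called 2 members for HDB against acellular at 15 mm, 7 over both sizes, 9 for acellular 10 mm and 9 for HDB 15 mm against normal, 1 for 15 mm against 10 mm in acellular skin and 2 in HDB skin. With only the groups compared in the fit, no member was tested for acellular 10 mm against normal (0 called, as none passed the filter), 0 of the 5 that passed it were called for acellular 15 mm against normal, and 6 of 9 were called for HDB 15 mm against normal. In such fits no member passed the filter for HDB 10 mm against normal. For HDB against acellular at 10 mm, 4 of the 9 passed it and 0 were called. Leaving out each sample in turn gave 0 to 2 members called for HDB against acellular at 15 mm and over both sizes, 0 to 1 for acellular 10 mm against normal and for 15 mm against 10 mm in acellular skin, and 4 to 9 for acellular 15 mm against normal. The fitted value of Krt36 for HDB 10 mm against normal was 0.10, with -0.16 and 0.79 as the extremes over single samples left out, and lay below 0 without HDB 10 mm replicate 3, normal replicate 1 or normal replicate 3. The replicate block changed no call of a member in any comparison (all 9 still called for acellular 15 mm against normal, 1 for acellular 10 mm, 0 elsewhere), and at 15 mm the block in a fit of only the groups compared, chosen after seeing the data, gave 0 called with adjusted p-values of 0.508 to 0.655. The cause of these changes was not tested, apart from the filter with fewer samples. The libraries of a group differ far more than counting error, and depth limits only the levels near 3 counts, as in normal and HDB 10 mm skin.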
